A study of Anas platyrhynchos with 6 samples.

Results

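The circular RNAs described here come from genes whose products build the extracellular matrix or hold cells to it and to each other. They were taken from the circular RNAs of annotated genes by the gene description in the deposited table, which had to contain collagen, laminin, integrin, cadherin, catenin, fibronectin, thrombospondin or ADAM metallopeptidase and not kinase. The words were matched without use of a measured value, but the set was chosen with earlier results of these data known. It gave 336 listings, which are 299 back-splice junctions of 71 genes, out of 16631 listings, 14917 junctions and 4129 genes in all. The words of the description also brought in enzymes and partners that are not matrix proteins themselves, such as the procollagen hydroxylase PLOD2 and the spliceosome-associated protein CTNNBL1.

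Breast muscle was taken from female embryos of the Shan Ma duck, with 3 libraries at embryonic day 13 (E13), where the labels call the myoblasts undifferentiated, and 3 at embryonic day 19 (E19), where they call most of them differentiated. Eggs of both stages came from the same farm, and each library was depleted of ribosomal RNA and digested with RNase R, which removes linear RNA. A circular RNA is counted by the reads that cross its back-splice junction, where the end of a downstream exon is joined to the start of an upstream exon. The question was which circular RNAs differ between the stage before and the stage after myoblast differentiation.

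A muscle fibre is wrapped in a basement membrane of laminins and collagens, and fibroblasts around it lay down fibrillar collagens and fibronectin. Integrins are paired alpha and beta receptors that bind these proteins and tie them to the actin cytoskeleton. Cadherins join neighbouring cells, including myoblasts that are about to fuse, and catenins bind the inner tails of cadherins. ADAM and ADAMTS proteases cut cell surface and matrix proteins. A circular RNA shares exons with the messenger RNA of its gene, but its level is not a measure of that messenger RNA, which was not measured here. In whole tissue, fewer cells of a type and fewer circular molecules per cell cannot be told apart.

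The libraries held 43849 to 88916 back-splice reads over all listings. Levels are given as reads and as SRPBM, spliced reads scaled to the bases mapped in the library, in which a single read was worth 0.232 to 0.265. Positions are on the Ensembl duck genome used by the authors, whose build the sources used here do not give, and the lower coordinate of a circle is certain to 1 base. Defining markers of myofibres were poorly covered by circular RNA. Of 14 myogenic and myofibre markers, 4 had reads under their symbol, and MYOD1, MYOG, TTN and NEB were not listed under theirs. The 4 that had reads (DMD, LDB3, ACTN2 and PAX7) summed to 22.5 to 30.5 SRPBM at E13 and 33.9 to 72.2 at E19. Connective tissue markers (3 of 8 listed under their symbol) summed to 0 to 0.246 SRPBM at E13 and 0.742 to 3.06 at E19. Endothelial markers (4 of 7) summed to 0 to 0.983 and 0.486 to 0.989. COL1A1, a further connective tissue marker, was listed under an identifier alone, with 2 reads in E19 library 2, and is not in that sum. No marker of blood and immune cells (6) or fat (4) was listed under its symbol, PTPRC, CD74, PPARG and ADIPOQ among them. Genes listed under an identifier alone were not matched. The summed level of the myogenic and of the connective tissue markers was higher in every E19 library than in any E13 library. Single markers did not all follow, and LDB3 overlapped (110, 68 and 105 reads at E13, against 142, 233 and 83 at E19). The connective tissue sum rested on few reads at E19 (16 for COL1A2, 4 for DCN and 7 for TCF7L2). COL1A2 is itself among the genes described here. The part of these markers in the results below was not tested.

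Together the 71 genes gave 1393 back-splice reads at E13, against 1797 at E19. Their summed level was 127.7, 87.2 and 126.4 SRPBM in the E13 libraries (113.8 ± 22.99, SD, n = 3) and 151.4, 178.0 and 107.0 in the E19 libraries (145.5 ± 35.8). The E19 library 3 lay below 2 of the E13 libraries, so the stages overlapped. As a share of all back-splice reads, each junction counted a single time, the genes made up 0.990% ± 0.101 at E13 and 1.02% ± 0.0777 at E19. Cadherin genes held 21.8% of the reads, thrombospondin and ADAMTS genes 20.2%, catenins 18.8%, integrins 15.1%, collagens 9.69%, ADAM genes 8.71%, laminins 5.36% and fibronectin genes 0.313%.

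**Figure D1:**
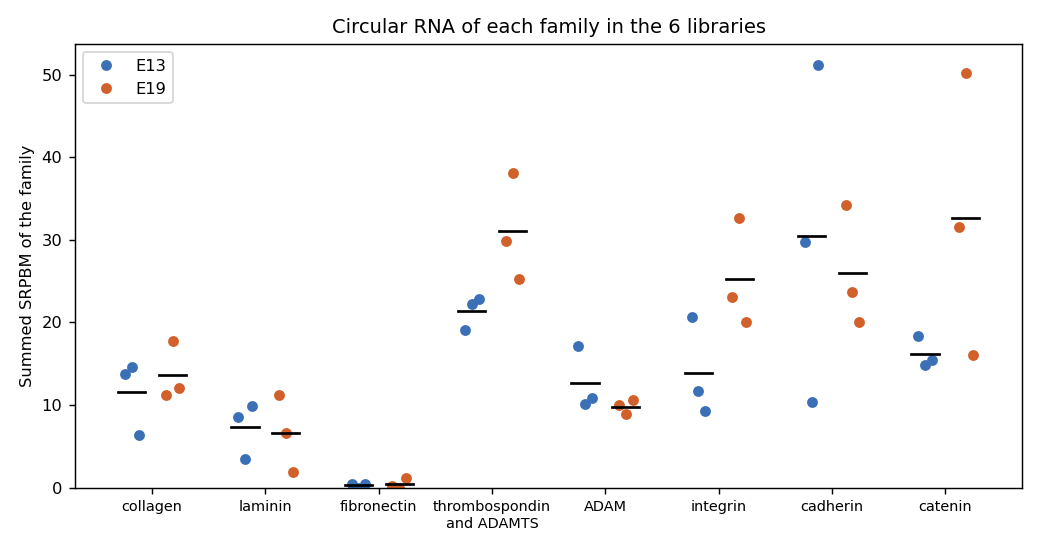
Summed circular RNA level (SRPBM, linear axis from 0) of each gene family in the 6 libraries, with E13 libraries in blue, E19 libraries in orange and a black line at the mean of 3. Thrombospondin and ADAMTS genes are the family in which the E19 libraries (25.2 to 38.1) all lie above the E13 libraries (19.0 to 22.9), and the other families overlap on this scale.

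By family, thrombospondin and ADAMTS genes had 21.4 ± 2.06 SRPBM at E13 and 31.1 ± 6.50 at E19, though as a share of back-splice reads the libraries overlapped. In this family ADAMTS20 alone held 88 of the 259 reads at E13 and 198 of the 384 at E19. Integrins had 13.9 ± 5.98 and 25.3 ± 6.57. Catenins had 16.2 ± 1.86 at E13 and 32.6 ± 17.1 at E19, with the lowest E19 library at 16.03. Cadherins (30.4 ± 20.4 and 26.0 ± 7.38), laminins (7.29 ± 3.39 and 6.58 ± 4.65) and ADAM genes (12.7 ± 3.91 and 9.82 ± 0.863) had lower means at E19, with overlapping libraries. As a share of back-splice reads, every E19 library of the integrins (0.165% to 0.191%) lay above every E13 library (0.0817% to 0.153%). Of the integrin reads, ITGA9 alone held 66 of 171 at E13 and 245 of 312 at E19. By share, every E19 library of the ADAM genes (0.0520% to 0.0922%) lay below every E13 library (0.0946% to 0.127%). ADAM10 held 136 of the 156 ADAM reads at E13 and 72 of the 122 at E19, while ADAM12 went the other way (20 and 46). Collagens had a higher mean at E19 in SRPBM (11.6 ± 4.50 and 13.7 ± 3.60) but a lower mean as a share of back-splice reads (0.104% and 0.0961%).

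Stages were compared with the quasi-likelihood test of edgeR on genes with at least 10 reads over the 6 libraries, adjusted by the Benjamini-Hochberg method over all genes tested. Of the 71 genes 35 had enough reads, and the other 36 were not tested. A single gene passed an adjusted p of 0.05, ITGA9, which is 2.86% of the 35, where 2.03% of all 1825 genes tested passed, 1.42% higher at E19 and 0.603% lower. At the thresholds the study used, a log2 change of at least 1 and an unadjusted p of at most 0.05, there were 9 of 35 genes (25.7%), and 11.1% of all genes. Of these 6 were higher at E19 (ITGA9, ARVCF, ADAMTS20, CELSR1, COL1A2 and CDH2; 7.23% of all genes) and 3 lower (ITGA8, COL26A1 and THSD7B; 3.89%). When libraries were scaled by TMM factors or by their back-splice reads, the 8 genes at these thresholds were 4 higher and 4 lower. Of all 1825 genes, 186 and 180 were then at these thresholds. There were 3 of 31 genes without E13 replicate 1 (168 of all 1652). Without E19 replicate 2 there were 5 of 31 (126 of all 1645), and without E19 replicate 3 there were 5 of 32 (170 of all 1691). Of the 9 genes, 6 had no reads at all in a stage. Such genes passed the filter of 10 reads only through the other stage, so their direction is not support for a change.

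Overlap of a gene or circle was judged on reads scaled by mapped reads, here and below, unless a share is named. Stages did not overlap in 7 of the 35 genes (20%), against 15.6% of all genes. These were ITGA9, ADAMTS20, ADAM12, CELSR1 and CDH2, higher at E19 (10.5% of all genes), and ADAM10 and PCDH19, higher at E13 (5.15%). The log2 change was above 0 in 21 of 35 genes, or 60.0%, against 58.7% of all genes. The median log2 change was 0.33 over the 35 genes and 0.25 over all genes tested.

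**Figure D2:**
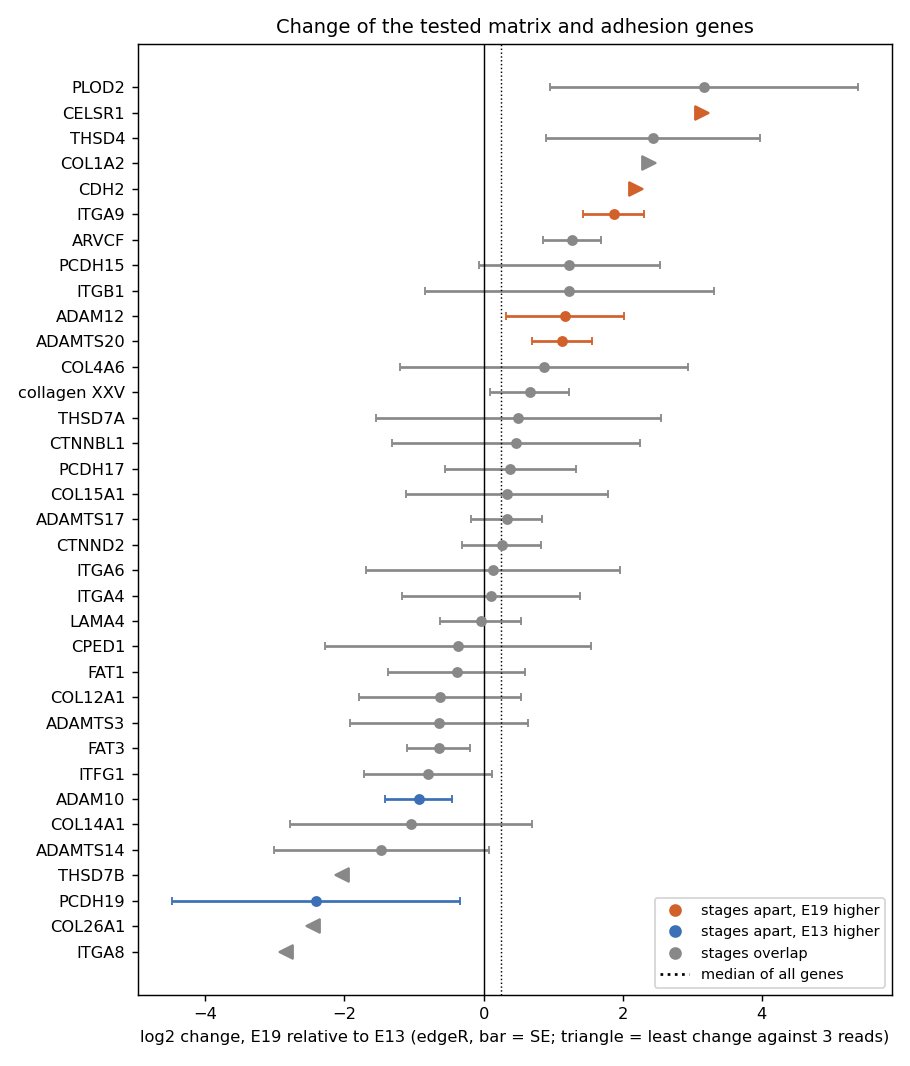
Log2 change from E13 to E19 of the 35 tested genes, with circles for the edgeR estimate and bars for its SE, triangles for the least change allowed by 3 reads where a stage had no reads, orange or blue where the libraries of the stages did not overlap, and a dotted line at the median of all genes (0.25). ITGA9 (1.87) stands to the right with a short bar, while most genes with larger estimates have no or few reads in a stage.

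Among the receptors, ITGA9 encodes the integrin alpha 9 chain, which pairs with the beta 1 chain and binds tenascin C, osteopontin and other ligands. It lies on chromosome 2 and gave 28 junctions, the 8th largest number of all 4129 genes, while it ranked 165th by reads. Its circles had 29, 19 and 18 reads in the E13 libraries and 63, 112 and 70 in the E19 libraries. Every E19 library held more than double the reads of any E13 library. The level was 5.40 ± 1.20 SRPBM at E13 and 19.8 ± 6.83 at E19 (n = 3 each), and the log2 change was 1.87 (SE 0.438, adjusted p = 0.0109 by edgeR). Per 10000 back-splice reads of the library the gene had 5.0, 5.30 and 3.87 reads at E13 and 10.9, 16.2 and 14.3 at E19. ITGA9 was thus higher at E19 in these libraries. It had been named for the set with earlier results of these data known, so its p-value is not independent support. The gene stayed past the threshold in 12 of 15 alternative analyses of the same 6 libraries. Their adjusted p by edgeR, DESeq2 or voom ran from 0.00160 to 0.202, and log2 changes from 1.55 to 2.06. The call was lost without E13 replicate 2 (log2 change 1.82, adjusted p = 0.119), without E13 replicate 3 (1.74, adjusted p = 0.107) and without E19 replicate 2 (1.55, adjusted p = 0.202).

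The reads of ITGA9 were spread over many circles. Of the 28, 23 were exonic and 5 were of the type the authors call ciRNA, or intronic circles. By position not all of these lay within an intron, since ciRNA955 and ciRNA956 share their end (60289933) with the exonic circRNA7313. The most-read circle held 15.4% of the reads. This was circRNA4998, made of exons 2 and 3 (chr2:60146947-60148201, plus strand, 235 bases of exon), with 4, 4 and 8 reads at E13, against 4, 15 and 13 at E19. Its libraries overlapped (log2 change 0.95, SE 1.08, adjusted p = 0.961 by edgeR). Its share of the gene's reads was 26.4% ± 16.02 at E13 and 12.8% ± 6.13 at E19 (exact p = 0.2 by permutation, two-sided, n = 3 each, where 0.1 is the smallest possible), with an adjusted p of 0.467 over the 7 genes compared in this way.

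The reads can also be laid out along the gene. The 2 circles that start at exon 2 had 8, 6 and 13 reads at E13, against 15, 31 and 14 at E19. The 10 circles that lie within exons 16 to 23 had 0, 6 and 3 reads at E13, against 22, 33 and 38 at E19, or 9 and 93 in all. The other 11 exonic circles had 18, 7 and 2 reads at E13, against 9, 29 and 14 at E19, and the 5 ciRNAs 3, 0 and 0 and then 17, 19 and 4. These groups of circles were formed after the values were seen, so no test was made of their difference.

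Several circles within exons 16 to 23 had no read in any E13 library. circRNA11502, of exons 19 to 23 (chr2:60312860-60323270, 474 bases), had 0 reads at E13, against 8, 3 and 10 at E19. Against a floor of 3 reads over the 3 E13 libraries this was at least 6.85-fold higher at E19 (adjusted p = 0.441 by edgeR). circRNA10410, of exons 16 to 23 (chr2:60258490-60323270, 858 bases), had 0 at E13, against 4, 4 and 7 at E19, at least 4.89-fold higher. circRNA13671, of exons 17 to 20 (chr2:60271134-60314482, 395 bases), had 0 at E13, against 0, 7 and 10 at E19, so that an E19 library also lacked it. circRNA7313, of exons 17 and 18 (chr2:60271134-60289933, 228 bases), had 0, 3 and 0 reads and then 6, 6 and 7. The ciRNA363 (chr2:60196167-60212994) had 3, 0 and 0 reads at E13, against 6, 15 and 4 at E19. No circle of ITGA9 passed an adjusted p of 0.05 by itself.

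**Figure D3:**
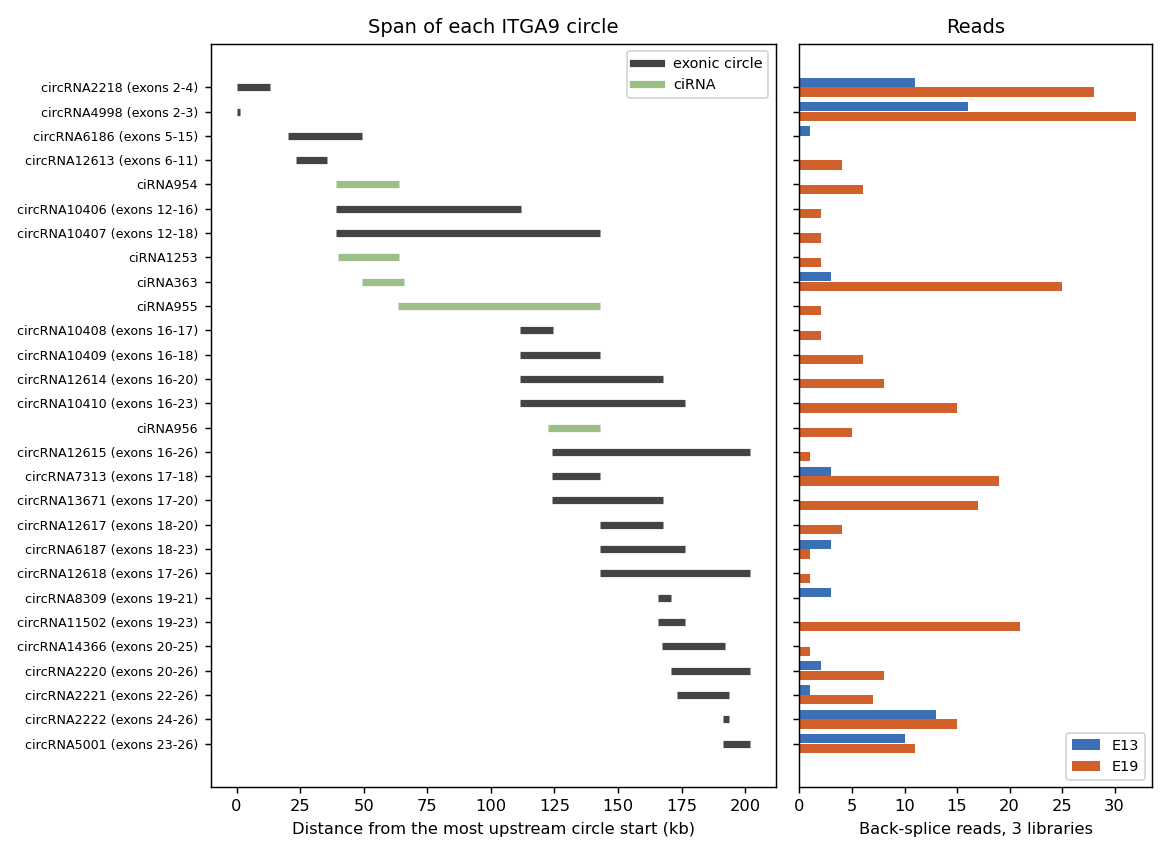
The 28 circles of ITGA9, with the span of each in kb from the most upstream circle start on the left (exonic circles dark, ciRNAs green, exon numbers as annotated for the transcript each was assigned to) and its back-splice reads summed over the 3 E13 (blue) and 3 E19 (orange) libraries on the right. The circles of exons 16 to 23 hold 9 reads at E13, against 93 at E19, while circRNA4998 of exons 2 and 3 holds 16 and 32.

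The other integrin genes gave few reads. ITGA8, the alpha 8 chain, a receptor for nephronectin and other ligands, had 17, 4 and 0 reads at E13 and 0 in every E19 library. Against the floor it was at least 7.15-fold lower at E19 (adjusted p = 0.268 by edgeR), and an E13 library also had none. Its main circle, circRNA4887 of 3 exons (chr2:21602049-21607224), had 11, 4 and 0 reads at E13. ITFG1, which is grouped here for the integrin-like repeats in its description, had 23, 3 and 13 reads at E13, against 3, 14 and 5 at E19, which overlapped, as did the 5, 14 and 12 at E19 with the larger listings. ITGA4 had 5, 9 and 4 reads and then 15, 5 and 0, and ITGA6 had 4, 2 and 2 and then 5, 0 and 4. ITGB1, the beta partner of the alpha chains above, had 1, 2 and 0 reads at E13, against 2, 0 and 6 at E19. At this depth a difference in ITGB1 was not detectable (log2 change 1.23, adjusted p = 0.956 by edgeR).

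Among the catenins, ARVCF encodes a delta catenin that binds the inner tail of cadherins near the membrane. Its 17 junctions on chromosome 16 had 56, 36 and 35 reads at E13, against 101, 158 and 51 at E19. The E19 library 3 was below E13 library 1, and the other E19 libraries were above all of E13. The level was 10.4 ± 2.32 SRPBM at E13 and 25.2 ± 13.5 at E19, with a log2 change of 1.28 (SE 0.417, adjusted p = 0.115 by edgeR). When the larger of duplicate listings was taken in each library over all genes, it passed, at a log2 change of 1.28 and an adjusted p of 0.0496 by edgeR. ARVCF itself had no duplicate listings (17 listings of 17 junctions), so its own reads were the same in that setting. In the other 14 alternatives it did not pass. The log2 change fell to 0.99 with TMM factors (adjusted p = 0.222 by edgeR) and 0.99 with DESeq2 (adjusted p = 0.251). It was 0.90 with total back-splice reads (adjusted p = 0.279 by edgeR) and 0.81 without E19 replicate 2 (adjusted p = 0.662 by edgeR).

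The most-read circle of ARVCF, circRNA4773 (chr16:4436743-4457601, plus strand, 4 exons, 540 bases), had 22, 5 and 3 reads at E13, against 36, 67 and 15 at E19. Its log2 change was 1.98 (SE 0.656, adjusted p = 0.174 by edgeR), and E13 library 1 overlapped E19. It shares its downstream end with circRNA297 of exons 6 to 8, which had 5, 0 and 4 reads and then 7, 3 and 4. circRNA295, of exons 4 and 5 (chr16:4427861-4436926, 684 bases), had 22, 21 and 14 reads at E13, against 23, 41 and 18 at E19, closer together than those of circRNA4773. circRNA9535, of exons 9 to 14 (chr16:4482691-4488569, 729 bases), was at 0 in E13 and had 6, 13 and 2 reads at E19, at least 6.85-fold higher (adjusted p = 0.441 by edgeR). The share of ARVCF reads in circRNA4773 was 20.6% ± 16.4 at E13 and 35.8% ± 6.50 at E19 (exact p = 0.3 by permutation, n = 3 each).

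CTNND2, another delta catenin, best known from neurons, had 20, 19 and 21 reads at E13, against 27, 32 and 14 at E19 over 19 junctions. The E13 libraries lay within the range of the E19 libraries. The log2 change was 0.26 (adjusted p = 0.961 by edgeR), and its sign turned with TMM factors (-0.020), total back-splice reads (-0.11), DESeq2 (-0.021) or without E19 replicate 2 (-0.0099). No circle of CTNND2 dominated, and circRNA6216 of exons 4 to 6 (chr2:82466646-82505037, 531 bases) led with 0, 7 and 7 reads and then 6, 3 and 4. CTNNB1, the beta catenin that links cadherins to actin and carries Wnt signals, had 0, 1 and 0 reads at E13, against 0, 4 and 3 at E19, too few to test.

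Among the cadherins, FAT3, a giant atypical cadherin, gave 447 reads, the most of the 71 genes. It had 95, 22 and 155 reads at E13, against 97, 35 and 43 at E19, and the E13 libraries spanned the whole range of the E19 libraries. The level was 22.0 ± 16.1 SRPBM at E13 and 14.1 ± 8.22 at E19 (log2 change -0.64, SE 0.453, adjusted p = 0.741 by edgeR), and without E13 replicate 3 the log2 change was 0.0082. Nearly all of it, 93.3%, was circRNA3331 (chr1:173803663-173803976, minus strand, 315 bases). This is a circle of a single exon, numbered 2 in the transcript it was assigned to. circRNA3331 had 80, 22 and 144 reads at E13, against 97, 33 and 41 at E19. Its log2 change was -0.53 (adjusted p = 0.860 by edgeR), and 0.17 without E13 replicate 3. It was the circle with the most reads among the 299.

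CELSR1, a seven-pass cadherin of planar cell polarity, was at 0 in the E13 libraries and had 6, 10 and 11 reads at E19. This was at least 8.81-fold higher at E19 (adjusted p = 0.138 by edgeR). Its circle of a single exon, circRNA10983 (chr1:15416575-15417213, 639 bases), made up 3, 10 and 6 of these reads. CDH2, the N-cadherin that joins myoblasts, was likewise at 0 at E13 and had 5, 5 and 4 reads at E19, at least 4.57-fold higher (adjusted p = 0.393 by edgeR), of which 5, 5 and 2 were the ciRNA930. PCDH17, a protocadherin, had 4, 5 and 15 reads at E13, against 13, 13 and 6 at E19. Reads at E19 alone were found in 3 of the 35 genes, CELSR1, CDH2 and COL1A2, and in 2.52% of all genes tested. Reads at E13 alone were found in 3, ITGA8, COL26A1 and THSD7B, against 2.47%. PCDH19, the protocadherin whose stages did not overlap in the other direction, had 4, 4 and 4 reads and then 2, 0 and 0, and was named after its values were seen.

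Among the proteases, ADAMTS20, a secreted metalloprotease that cuts versican in the mouse, had 23, 37 and 28 reads at E13, against 65, 71 and 62 at E19. Scaled by mapped reads, every E19 library was above every E13 library, and the E19 libraries were close to each other. As a share of back-splice reads the stages overlapped. E13 library 2 (37 of 35882 reads) then lay slightly above E19 library 2 (71 of 69236). The level was 7.35 ± 2.27 SRPBM at E13 and 15.99 ± 1.48 at E19, with a log2 change of 1.12 (SE 0.432, adjusted p = 0.246 by edgeR). Its circRNA4931, of exons 3 and 4 (chr1:30853827-30859514, minus strand, 426 bases), held 81.5% of the reads, with 22, 31 and 26 at E13, against 49, 51 and 54 at E19 (log2 change 0.92, SE 0.491, adjusted p = 0.441 by edgeR). The next exons also gave circRNA11481 (chr1:30841954-30843790, exons 5 to 7, 250 bases), with 0 reads at E13, against 7, 5 and 3 at E19, at least 4.89-fold higher. The share of ADAMTS20 reads in circRNA4931 was 90.8% ± 6.20 at E13 and 78.1% ± 7.99 at E19 (exact p = 0.2 by permutation, n = 3 each).

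ADAM10, the sheddase that cuts Notch receptors and N-cadherin, showed the opposite order. It had 63, 32 and 41 reads at E13, against 27, 19 and 26 at E19, with the lowest E13 library above the highest E19 library. The level was 11.1 ± 3.19 SRPBM at E13 and 5.80 ± 0.976 at E19, and the log2 change of -0.93 did not pass the test (SE 0.479, adjusted p = 0.435 by edgeR). Of the reads 95.7% were circRNA157, of exons 2 to 5 (chr11:4238240-4248499, minus strand, 532 bases), with 63, 31 and 39 at E13, against 22, 18 and 26 at E19. Its log2 change was -1.03 (SE 0.521, adjusted p = 0.441 by edgeR). ADAM12, a metalloprotease of fusing muscle cells, had 11, 6 and 3 reads at E13, against 14, 15 and 17 at E19. Its stages did not overlap either, with the higher stage E19, and the log2 change was 1.17 (adjusted p = 0.757 by edgeR).

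ADAMTS17 had 8, 40 and 47 reads at E13, against 42, 52 and 30 at E19 over 25 junctions, and E13 library 1 stood apart from its stage. The log2 change was 0.33, and it turned to -0.14 without E13 replicate 1 and to -0.088 with total back-splice reads as scaling. Its most-read circle, circRNA7472 of exons 3 to 7 (chr11:18063199-18093153, minus strand, 625 bases), had 0, 0 and 6 reads at E13, against 15, 12 and 11 at E19 (log2 change 2.57, SE 1.29, adjusted p = 0.441 by edgeR). A duplicate listing of this junction, 1 base apart, held 11 further reads in E13 library 2. With the larger listing taken in each library the circle had 0, 11 and 6 reads and then 15, 12 and 11, the stages overlapped, and the log2 change was 1.07 (adjusted p = 0.857 by edgeR). circRNA4947 of exons 4 to 7, which ends at the same exon, had 4, 10 and 12 reads and then 7, 0 and 7, or 7, 7 and 7 at E19 with the larger listings. THSD7B, a thrombospondin-repeat protein, had 11, 1 and 0 reads at E13, against 0 at E19, at least 4.09-fold lower (adjusted p = 0.421 by edgeR). A duplicate listing held 4 reads in E13 library 3, and with the larger listings the gene had 11, 1 and 4 reads at E13, which no longer overlapped E19, at least 5.45-fold lower (adjusted p = 0.317 by edgeR).

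**Figure D4:**
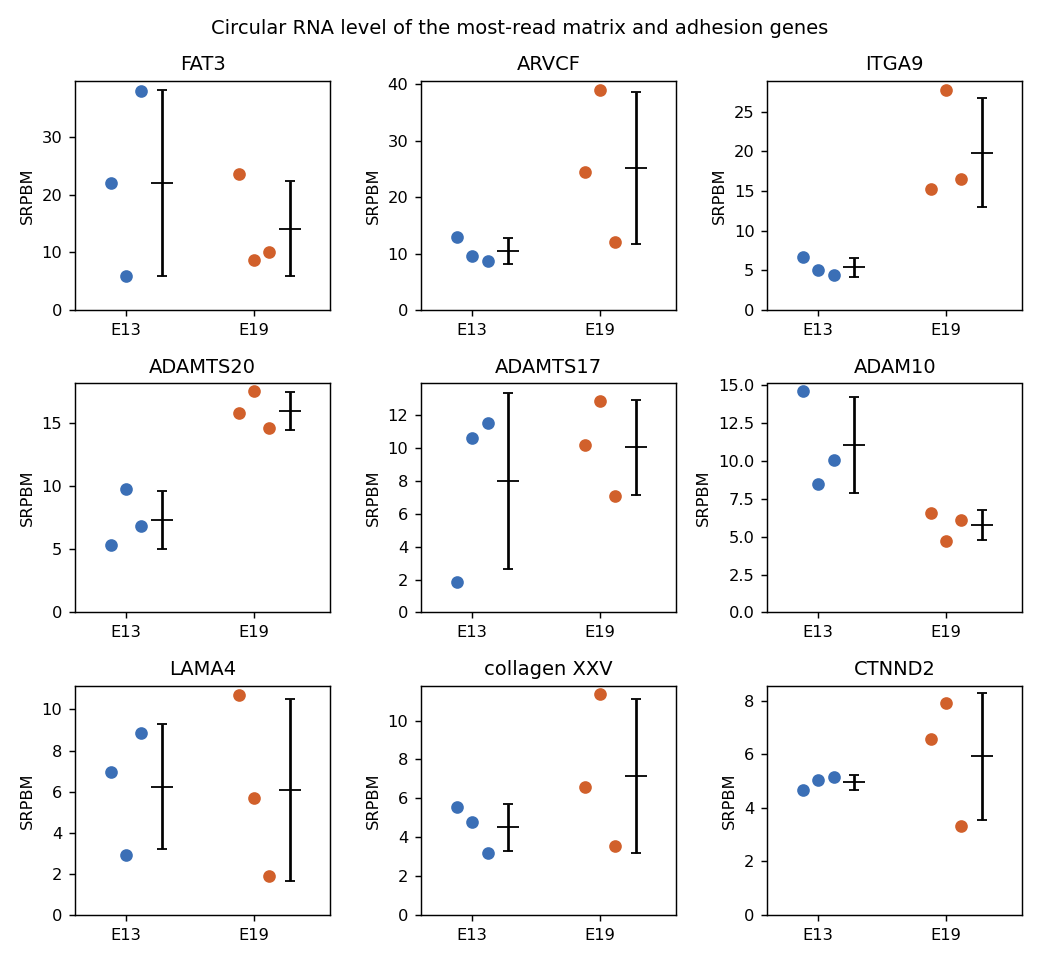
Circular RNA level (SRPBM, linear axes from 0, a scale for each panel) of the 9 genes with at least 100 reads, with a point for each library (E13 blue, E19 orange) and the mean with its SD (n = 3) in black. On this scale ITGA9 and ADAMTS20 lie higher in every E19 library and ADAM10 in every E13 library, while FAT3, LAMA4 and ADAMTS17 have libraries of a stage far apart.

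Among the matrix proteins, LAMA4, the laminin alpha 4 chain of basement membranes, had 30, 11 and 36 reads at E13, against 44, 23 and 8 at E19. The stages overlapped across their range (log2 change -0.04, adjusted p = 0.989 by edgeR). Most of it was circRNA1858, of exons 11 to 16 (chr3:68651422-68658514, 811 bases), with 28, 6 and 31 reads and then 42, 23 and 6. The other laminin genes, LAMC1, LAMA5, LAMB1 and LAMA1, had 2 to 7 reads each in all.

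The collagen with the most reads was collagen XXV, a transmembrane collagen that in the mouse is needed for motor axons to enter muscle, listed under the identifier ENSAPLG00000008681 on chromosome 4. It had 24, 18 and 13 reads at E13, against 27, 46 and 15 at E19 over 3 junctions (log2 change 0.66, SE 0.569, adjusted p = 0.829 by edgeR). Of its circles circRNA4409 (chr4:5258665-5274229, minus strand, 5 exons, 270 bases) had 11, 4 and 3 reads at E13, against 15, 21 and 12 at E19, without overlap (log2 change 1.40, adjusted p = 0.542 by edgeR). circRNA4410, with the same lower coordinate and 6 exons (chr4:5258665-5295644), had 13, 12 and 8 reads and then 7, 19 and 0. The share of collagen XXV reads in circRNA4409 was 30.4% ± 13.4 at E13 and 60.4% ± 17.7 at E19 (exact p = 0.2 by permutation, n = 3 each, adjusted p = 0.467). None of the 7 genes with enough reads for such shares reached the smallest possible p of 0.1.

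COL1A2, a chain of the fibrillar collagen I and itself a connective tissue marker, had 0 reads at E13, against 3, 0 and 13 at E19. This was at least 5.22-fold higher (adjusted p = 0.377 by edgeR), but 11 of the reads were the ciRNA1501 (chr2:25167676-25178178) in E19 library 3 alone. The 3 reads of E19 library 1 were circRNA10921, listed on the minus strand, while ciRNA1501 is listed on the plus strand. The sum for COL1A2 thus joins circles of both strands. COL26A1 had 9, 7 and 0 reads at E13, against 0 at E19, at least 5.45-fold lower (adjusted p = 0.364 by edgeR). Fibronectin genes were near the limit of detection, with FNDC3B at 0, 0 and 5 reads at E19 and 0 at E13, and FN1, fibronectin itself, at 2 reads in an E13 library and 0 elsewhere. These numbers do not allow a comparison of stages.

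Counted by junction, 62 of the 299 had at least 10 reads and were tested, and 237 were not. No junction of these genes passed an adjusted p of 0.05 by edgeR, where 0.995% of all 3519 junctions passed, 0.682% higher at E19 and 0.313% lower. DESeq2 and limma voom also called none, where they called 69 and 46 of all junctions. The 7 of the 62 with an unadjusted p under 0.05 by edgeR were those at the study's thresholds, whose share over all junctions follows. At the study's thresholds there were 7 (11.3%), all higher at E19, against 8.53% of all junctions, 5.88% higher and 2.64% lower. Of these, circRNA4773 of ARVCF had reads in both stages (30 and 118). The others had 0 reads at E13 and 15 to 21 at E19. Such junctions passed the filter of 10 reads only through E19, so their shared direction is not support for a rise. They were circRNA11502, circRNA10410 and circRNA13671 of ITGA9, circRNA9535 of ARVCF, circRNA10983 of CELSR1 and circRNA11481 of ADAMTS20. At the same thresholds TMM factors gave 5 higher and 2 lower, total back-splice reads 4 and 4, and DESeq2 5 and 1. Of all 3519 junctions, 283, 281 and 286 were at the thresholds in these settings. There were 4 of 55 junctions without E19 replicate 1 (230 of all 3101) and 1 of 44 without E19 replicate 2 (190 of all 3052). Stages did not overlap in 16 of 62 junctions (25.8%), against 14.4% of all junctions, with 13 higher at E19 (9.63%) and 3 higher at E13 (4.75%). With the larger listing in each library it was 15 of 66 junctions (22.7%, against 14.5% of all) and 8 of 36 genes (22.2%, against 15.7% of all). The median log2 change was 0.74 over the 62 and 0.25 over all junctions. Junctions of the same gene are not independent, and ITGA9 gave several of those named above. Counted by gene, stages did not overlap in 20% against 15.6%, and the medians were 0.33 and 0.25. Reads at E19 alone were found in 8 of the 62 and in 7.93% of all junctions, and at E13 alone in 4 and in 4.83%.

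In form the circles were much like those of other genes. Of the 299, 88.6% were exonic, and 87.8% in other genes. The exonic circles had a median of 3 exons in both sets and a median length of 474 bases, against 452. Circles of a single exon were 8.68% and 5.85% of exonic circles. Reads were found in a single library for 65.9% of the junctions and in all 6 libraries for 10 of them (3.34%), where other genes had 64.6% and 6.43%. Of the 71 genes 7 had at least 10 junctions, or 9.86%, against 5.30% of other genes. Both flanking introns were given for 59 of the 299 junctions and 2326 in other genes. In these they had medians of 5891 bases for the shorter and 13307 bases for the longer of the pair, against 5060 and 14041. These values describe the sets and were not tested.

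Genes that work beside these proteins were looked up from lists by symbol, so a gene listed under an identifier alone was not matched. Of 30 genes of integrin adhesion sites, the plaques that join integrins to actin, 14 had reads and 10 were tested. None passed the adjusted threshold or the study's thresholds, and their median log2 change was 0.06, against 0.25 for all genes. VCL, which encodes vinculin, had 12, 12 and 8 reads at E13, against 21, 20 and 24 at E19, without overlap (log2 change 0.98, adjusted p = 0.712 by edgeR). PARVA, a partner of the integrin-linked kinase, had 24, 16 and 24 reads and then 17, 11 and 15, with the stages apart the other way (log2 change -0.60, adjusted p = 0.915 by edgeR). DOCK1 (91, 84 and 73, then 58, 68 and 129) and PTK2, the focal adhesion kinase (40, 50 and 45, then 56, 26 and 43), overlapped.

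The dystrophin and dystroglycan complex is the other main link between the matrix and the muscle cytoskeleton. Of 24 genes 9 had reads, 7 were tested, and 1 passed the adjusted threshold, higher at E19 (2.03% of all genes passed). The median log2 change was 1.28, against 0.25 over all genes, with 3 of the 7 below 0. At the study's thresholds 1 gene was higher and 1 lower. DMD, which encodes dystrophin, had 9, 17 and 19 reads at E13, against 51, 53 and 60 at E19 (log2 change 1.81, SE 0.497, adjusted p = 0.0379 by edgeR). SNTG1, a syntrophin, had 70, 53 and 64 reads at E13, against 16, 29 and 32 at E19, without overlap (log2 change -1.30, adjusted p = 0.145 by edgeR). DTNA, dystrobrevin alpha, had 0, 4 and 0 reads and then 17, 5 and 10, with the E19 libraries above those of E13, and did not pass the test. Of 37 matrix proteins and enzymes that the descriptions did not bring in, 14 had reads, 7 were tested and none passed either threshold, with a median of -0.20. Among them FBLN2, fibulin 2, had 8, 9 and 6 reads and then 5, 0 and 0, and MMP16, a membrane-bound metalloprotease, 3, 3 and 0 and then 6, 10 and 5.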

How the data were processed

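Circular RNA of 6 libraries of duck breast muscle, 3 at E13 and 3 at E19, was analysed from the deposited tables. Per the methods of the study, adaptors were cut by Cutadapt, Bowtie 2 and TopHat 2 aligned the reads to the Ensembl duck genome (build not given in the sources used here), and junctions came from TopHat-Fusion, CIRCexplorer2 and CIRI. The deposited counts are back-splice reads without normalization. The deposited signal, SRPBM, was made by the authors as the count over the total bases of all mapped plus candidate junction reads. The deposited sheets of fold changes, p-values and q-values hold the authors' own comparison of stages and were not used. The members and gene lists were chosen with earlier results of these data known.

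Listings with the same chromosome, strand and end and starts within 1 base were taken as 1 junction, with the listing of more reads, so a start is certain to 1 base (37 of the 299 junctions). Reads were summed per gene description. Of a second table of counts, no row used here differed. The tests were edgeR 4.0.16 (quasi-likelihood, mapped reads as library size, at least 10 reads over 6 libraries), DESeq2 1.42.0 and limma 3.58.1 (voom) in R 4.3.3, with an adjusted p threshold of 0.05; the SE is the absolute log2 change divided by the square root of F. The code was tested on simulated junction counts. It found 0 of 55 tested changes of 2-fold, 4 of 55 of 4-fold and 7 of 47 of 8-fold, beside 3 false calls. Most changes of these sizes in single junctions were thus missed. Shares were compared by exact permutation over the 6 libraries, for genes with at least 10 reads in every library. A fold against a stage at 0 takes 3 reads over that stage and covers counting error of that stage only. The stage with reads enters at its observed count, without allowance for its own error.

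Genes named are the 12 with most reads, those past the adjusted threshold, the 5 with the smallest p in each direction among the rest, ITGA9, and up to 2 of a family otherwise unnamed; other family and list members named were chosen after their values were seen. Libraries of a stage are separate embryos per the study's methods. The alternatives were TMM factors, total back-splice reads as library size, DESeq2, voom, no filter, a filter of 30 reads, the larger listing in each library, every listing kept, a replicate block and each library left out. Some items of the gene lists are not reported here, and the counts of the lists include them.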

Additional observations from a re-analysis of the deposited data

How the results depend on the processing

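Of the 35 tested genes, 1 passed an adjusted p of 0.05 (edgeR), and 2 did with the larger listing in each library (ITGA9 and ARVCF). Leaving out a library gave 0 to 1. Over all genes the 37 that passed became 50 with the larger listings and 10 to 20 without a library. The 9 genes at the study's thresholds became 5 with DESeq2, 5 with limma voom, 3 with at least 30 reads, and 3 to 8 when a library was left out. Over all genes the 203 at those thresholds became 140, 189, 126 and 126 to 175. The 7 junctions at those thresholds became 12 with voom, 2 with at least 30 reads, and 1 to 8 without a library. Over all junctions the 300 became 357, 160 and 190 to 245. The count of junctions of these genes past the adjusted threshold was 0 in all 15 alternatives. Counts fell with the stricter filter in part because 18 genes and 15 junctions were then tested. For the other changes the cause was not tested. With every listing kept, the mean summed level was 147.5 SRPBM at E13 and 188.3 at E19, since a junction with a pair of listings is then counted for each. Relative to the analysis reported, the median log2 change of all genes moved by -0.23 with TMM factors, -0.29 with total back-splice reads and -0.22 with DESeq2.

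Libraries of E13 and E19 were correlated over 510 junctions of at least 100 reads, after the mean log2 level of each stage was subtracted. These correlations of deviations were low for same-numbered libraries (0.019, 0.092 and 0.037), and for differently numbered libraries lay from -0.061 to 0.02. They do not measure how alike the whole profiles of the libraries are. The main test used no pairing. With the replicate block 1 gene passed the adjusted threshold, and 30 of all genes were called in place of 37. At the study's thresholds 4 genes and 2 junctions then passed, with 118 of all genes in place of 203 and 181 of all junctions in place of 300.

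Signs turned in genes without a call. Without a library in turn, FAT3 ranged from -1.23 to 0.0082, circRNA3331 from -1.16 to 0.17, ADAMTS17 from -0.14 to 0.70, LAMA4 from -0.72 to 0.39 and CTNND2 from -0.0099 to 0.55. ADAMTS17 turned to -0.088 with total back-splice reads, and CTNND2 to -0.020 with TMM factors, -0.11 with total back-splice reads and -0.021 with DESeq2. Depth limits the rest, since 36 genes and 237 junctions had under 10 reads over the 6 libraries.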
